A study of Mus musculus with 10 samples.

Results

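The genes of the contractile unit of striated muscle, the sarcomere, with the genes of calcium release and energy supply that go with it, were read in the mouse abdominal aorta. The 40 genes were taken by name from the 35527 gene names on the arrays, and 55 probes read them. They were set apart by the fibre that uses them: 14 fast skeletal, 9 slow skeletal (most of them also used by the heart), 5 cardiac, 2 developmental and 10 common to fast and slow fibres.

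A sarcomere is built of thick filaments of myosin, each with heavy and light chains, that pull on thin filaments of actin. Troponin T, I and C sit on the thin filament and let calcium switch contraction on. Titin and nebulin are giant proteins that set the length of the filaments, and alpha-actinin anchors thin filaments at the Z-disc. Fast, slow and cardiac fibres use different genes for the same parts, so the isoforms found in an RNA sample can tell which striated fibres contributed to it. The contractile cell of the aorta is smooth muscle, which has no sarcomeres and uses other myosin and actin genes.

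The study compared infrarenal aortas of male 10-week-old C57BL/6J mice 7 days after surgery, to find genes that change as an aneurysm forms. Mice of the PPE group had type I porcine pancreatic elastase in saline, at 1.5 U per mL, run into the aorta for 5 min at 100 mmHg. Sham mice had the same infusion of saline alone. Each group had 5 arrays, each with unpooled RNA of 1 aorta in the red channel (500 ng, Cy5) and Stratagene Universal Mouse Reference RNA in the green channel (Cy3). The whole segment from below the left renal artery down to where the aorta divides was taken. Per the study's methods it was freed of fat and connective tissue under a microscope.

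Values are log2 ratios of aorta over reference, so a value of 0 is the level of the reference and a difference of 1 is a doubling. Red signal stood well above background on 37.6% of spots on sham 5, the lowest array, and on 65.8% on PPE 1, the highest. Sham 1, PPE 1 and PPE 2 shared slide 1, and slide 2 carried sham 2, sham 3, PPE 3 and PPE 4. Sham 4, sham 5 and PPE 5 lay alone on slides 3, 4 and 5. Smooth muscle markers, which check the label of the tissue, had list means between 3.20 and 4.18 in sham and between 1.59 and 2.54 in PPE.

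Of the 40 genes, 38 could be tested, each well above background on at least 3 arrays of each group. Myosin light chain Mylpf and embryonic myosin heavy chain Myh3 were above background on 4 arrays each and were kept out of the test. At a limma adjusted p under 0.01, 6 of the 38 were lower in PPE (15.8%, against 9.96% of all 22520 names tested) and 1 was higher (2.63%, against 13.9%). The lower genes were Myh2, Myh7, Myoz2, Myl3, Myl2 and Tnnt2, and the higher gene was Tnni3. In 6 of the 38, every array of 1 group lay above every array of the other (15.8%, against 25.5% of all names). The median log2 fold change was -0.51 over the 38 and 0.02 over all names tested. Without sham 4 and PPE 2, the highest arrays for most of these genes, 5 were lower (Myh2, Myh7, Myoz2, Tnnt2 and Tcap) and 0 were higher.

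The classes did not move alike. Of the 9 slow genes, 4 fell, all 9 had a fold change below 0 (of these Tnni1 and Casq2, near 0, changed sign in some alternatives), and their median was -1.33. Of the 13 fast genes tested, only Myh2 passed the threshold, and their median was -0.33. None of the 10 common genes passed in limma (median -0.92), and of the 5 cardiac genes 1 fell and 1 rose (median -0.21). An unadjusted p under 0.05 was found for 3 of the 10 common, 6 of the 9 slow, 3 of the 5 cardiac and 2 of the 13 fast genes, against 43.6% of all names. In RNA of a whole aorta, fewer cells of a type and less RNA per cell cannot be told apart.

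The scaling of the arrays bears on all of these counts. With each array centred on its median in place of loess, the median log2 fold change of all names moved from 0.02 to 0.41, and the share of calls that were higher moved from 58.2% to 98.1%. The median within-group SD of all names rose from 0.248 to 0.753. No sarcomere gene passed the threshold in that scaling, in which Myh2 was -2.68, Myh7 -2.51, Myoz2 -1.78, Myl3 -1.63, Myl2 -1.22, Tnnt2 -0.52 and Tnni3 1.03. None of these 7 changed sign, and 9 genes that had not passed did. The class medians were then 0.26 for fast, -0.63 for slow, 0.39 for cardiac and -0.26 for common genes, with fast again above slow.

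**Figure D1:**
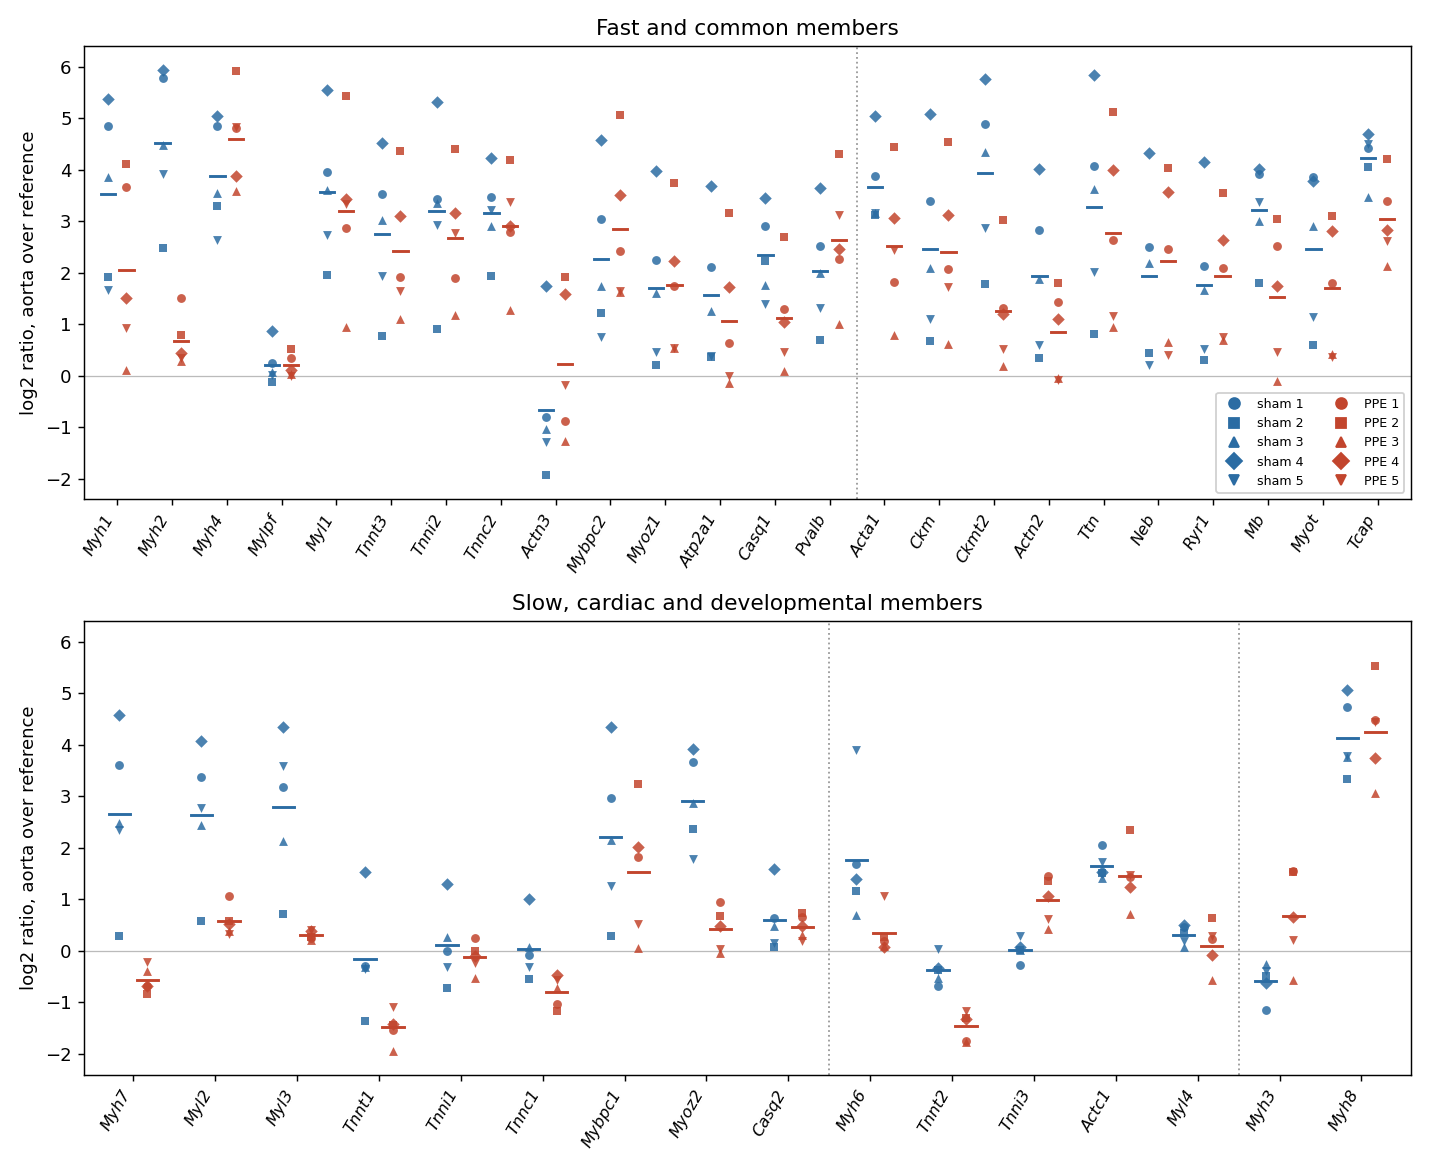
Log2 ratio of aorta over reference (vertical axis) of all 40 genes on the 5 sham (blue) and 5 PPE (red) arrays, with a symbol for each array number and a bar at each group's mean. Dotted lines part the classes: fast from common in the upper panel, slow from cardiac from developmental in the lower. Fast and common genes spread over several units in both groups. Myh7, Myl2 and Myl3 spread in sham and lie close together in PPE, where their probes were dim.

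Slow fibres use the myosin heavy chain Myh7, which is also the main heavy chain of the adult heart in large mammals and is used by slow skeletal fibres in mice. On sham 1 to sham 5, Myh7 read 3.60, 0.28, 2.48, 4.58 and 2.35. On PPE 1 to PPE 5 it read -0.68, -0.83, -0.39, -0.69 and -0.22. Sham 1, sham 3, sham 4 and sham 5 lay over 2, sham 2 was the lowest sham array, and the groups did not overlap. The log2 fold change was -3.22 (SE 0.62, adjusted p 0.00171), a 9.31-fold lower level, and 25-fold in the deposited log ratios.

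The light chains of the same myosin moved with it. Myl2, the regulatory light chain of slow and ventricular muscle, read 3.37, 0.58, 2.43, 4.07 and 2.77 in sham and 1.07, 0.57, 0.38, 0.52 and 0.33 in PPE. Its groups overlapped, since PPE 1 lay above sham 2, and the change was -2.07 (SE 0.51, adjusted p 0.00811). Myl3, the essential light chain of slow and ventricular muscle, read 3.19, 0.71, 2.12, 4.35 and 3.59 in sham and 0.26, 0.27, 0.20, 0.39 and 0.42 in PPE. The PPE arrays lay within a range of 0.21 and all below the lowest sham array, sham 2, and the change was -2.48 (SE 0.54, adjusted p 0.00369).

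Myoz2, a calsarcin that ties calcineurin to the Z-disc of slow and cardiac fibres, read 3.66, 2.37, 2.86, 3.93 and 1.78 in sham and 0.95, 0.68, -0.04, 0.48 and 0.04 in PPE. All sham arrays lay above all PPE arrays, and the change was -2.50 (SE 0.38, adjusted p 3.47e-04), or -3.97 in the deposited log ratios. Tnnt1, the slow troponin T, read -0.29, -1.35, -0.31, 1.53 and -0.34 in sham and -1.54, -1.44, -1.94, -1.42 and -1.09 in PPE. Sham 4 stood highest, sham 2 lay among the PPE arrays, and the difference of -1.33 (SE 0.42, adjusted p 0.0272) did not pass the threshold. Mybpc1, the slow form of myosin-binding protein C, read 2.97, 0.28, 2.16, 4.35 and 1.26 in sham and 1.82, 3.25, 0.06, 2.02 and 0.52 in PPE. It spread as widely in PPE as the fast genes did, and its difference of -0.67 (SE 0.76, adjusted p 0.548) did not pass.

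Of the other slow genes, troponin C Tnnc1 differed by -0.82 (SE 0.26, adjusted p 0.0302), and its values ran from -0.54 to 1.01 in sham and from -1.17 to -0.47 in PPE. Troponin I Tnni1 (difference -0.23) and the calcium store protein Casq2 (-0.12) lay within a unit of 0 on every array but sham 4. None of these 3 passed the threshold.

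Myl2 and Myl3 lay close to the threshold. Myl2 lost its call when any array but sham 2 was left out (adjusted p up to 0.0225), while its log2 fold change ran from -2.59 to -1.71 over the single arrays left out. Myl3 lost it without sham 1 (-2.39, adjusted p 0.0108) or without PPE 3 (-2.46, adjusted p 0.0103). With slide as a fixed block Myl2 was -1.65 (adjusted p 0.0302) and Myl3 -1.84 (adjusted p 0.0144). In that fit the arrays alone on their slides (sham 4, sham 5 and PPE 5) add nothing to the difference.

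Within slide 1, the PPE mean minus the sham array was -4.36 for Myh7, -2.55 for Myl2, -2.92 for Myl3 and -2.85 for Myoz2. Within slide 2 the same differences were -1.92, -1.06, -1.12 and -2.397. All ran the same way on both slides, which for Myh7, Myl3 and Myoz2 was fixed in advance, since their groups did not overlap. The other slides held 1 array each.

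Fast fibres are named by their myosin heavy chains: Myh2 for type IIa, which is the most oxidative of them, Myh1 for type IIx and Myh4 for type IIb, the most glycolytic. These genes lie side by side on mouse chromosome 11, with the perinatal gene Myh8 next to them. Myh2 fell, and its neighbours did not pass the threshold. On sham 1 to sham 5, Myh2 read 5.77, 2.49, 4.47, 5.93 and 3.91, and on PPE 1 to PPE 5 it read 1.51, 0.78, 0.29, 0.43 and 0.34. All sham arrays lay above all PPE arrays, and the log2 fold change was -3.84 (SE 0.57, adjusted p 3.09e-04), a 14.3-fold lower level. The fold depended on the setting: it was 6.15 in the deposited log ratios and 32.7 in the red channel alone. The reference channel was above background for the Myh2 probe on 4 arrays. The difference was -4.62 within slide 1 and -3.12 within slide 2.

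Myh4 read 4.84, 3.29, 3.55, 5.03 and 2.62 in sham and 4.81, 5.91, 3.58, 3.87 and 4.83 in PPE. PPE 2 was the highest array and the groups overlapped, with a difference of 0.73 (SE 0.53, adjusted p 0.323) and a 95% confidence interval from -0.42 to 1.89. Myh1 had values from 1.65 to 5.38 in sham and from 0.10 to 4.10 in PPE, and a difference of -1.47 (SE 0.92, adjusted p 0.250).

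The gap between Myh2 and Myh4 on the same array depends on probe and reference, so only its change between arrays can be read. The log2 ratio of Myh2 minus that of Myh4 was 0.92, -0.80, 0.93, 0.90 and 1.29 on sham 1 to sham 5 and -3.29, -5.13, -3.29, -3.44 and -4.49 on PPE 1 to PPE 5. Every PPE array lay below every sham array, by at least 2 units. PPE 2, which had the highest Myh4 log2 ratio of all arrays, had the lowest gap. In the red channel alone Myh4 was highest on sham 4 (15.77, against 14.96 on PPE 2). Its reference signal ran from 6.82 on sham 2 to 10.94 on PPE 4. The Myh2 probe was dim in PPE, with red signal above background on 3 of the 5 arrays. Against Myh1, the gap was 0.92, 0.57, 0.62, 0.55 and 2.26 in sham and -2.15, -3.32, 0.19, -1.08 and -0.58 in PPE, also without overlap, with PPE 3 closest to sham.

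The sequences in front of the 4 neighbours are shown because genes that lie together and share upstream sequence differed in the comparison. RefSeq's promoter table holds 33 of the 40 genes, and Actn3, Myoz1, Tcap, Tnnt3, Neb, Myot and Tnni2 are missing from it. The 250 bases before each start are given 5′ to 3′ on the plus strand of GRCm38.p6, with the longest run of bases found in all 4 in capitals. The window of Myh2 lies at chr11:67170777-67171026, Myh1 at chr11:67199852-67200101, Myh4 at chr11:67237562-67237811 and Myh8 at chr11:67276874-67277123.
Myh2: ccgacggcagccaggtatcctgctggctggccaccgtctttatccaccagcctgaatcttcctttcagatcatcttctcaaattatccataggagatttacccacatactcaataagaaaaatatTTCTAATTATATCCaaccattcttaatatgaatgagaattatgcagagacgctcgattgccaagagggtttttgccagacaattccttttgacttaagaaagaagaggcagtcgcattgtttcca
Myh1: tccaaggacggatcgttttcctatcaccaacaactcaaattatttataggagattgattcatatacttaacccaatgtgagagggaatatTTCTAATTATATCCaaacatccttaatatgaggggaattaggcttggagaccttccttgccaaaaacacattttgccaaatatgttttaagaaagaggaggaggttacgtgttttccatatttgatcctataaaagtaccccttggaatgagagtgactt
Myh4: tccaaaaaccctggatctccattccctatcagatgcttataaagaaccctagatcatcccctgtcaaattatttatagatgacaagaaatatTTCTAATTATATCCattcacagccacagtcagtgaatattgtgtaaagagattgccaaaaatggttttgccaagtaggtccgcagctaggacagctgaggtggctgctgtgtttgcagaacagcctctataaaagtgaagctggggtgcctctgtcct
Myh8: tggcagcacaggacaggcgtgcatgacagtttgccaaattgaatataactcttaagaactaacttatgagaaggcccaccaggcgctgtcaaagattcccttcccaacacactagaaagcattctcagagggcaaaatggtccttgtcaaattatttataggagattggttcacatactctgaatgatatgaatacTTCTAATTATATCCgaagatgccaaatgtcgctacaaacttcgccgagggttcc

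The shared run of 14 bases starts 125 bases before the start of Myh2, 160 before Myh1, 158 before Myh4 and 54 before Myh8. Searched on both strands, it was found in 4 of 32851 promoters of the same length (0.0122%). These were the 4 genes it was chosen from, so their matches were fixed in advance. TATAAA, the core of a TATA box, was searched on both strands and found in 12.4% of all promoters. On the plus strand, along which the genes run, it started 32 bases before the start of Myh1 and 31 and 213 before that of Myh4. On the minus strand its matches lay 208 bases before the start of Myh1, 179 before that of Myh4 and 96 before that of Myh8, and the window of Myh2 held no match. CANNTG, the E-box that myogenic factors can bind, was in 66.2% of all promoters, in those of Myh4 and Myh8, and not in these windows of Myh2 and Myh1. CATTCC, the MCAT element, was in 12.6% of all promoters, 1 match each in Myh1 and Myh4. These are matches of letters and not tested sites.

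**Figure D2:**
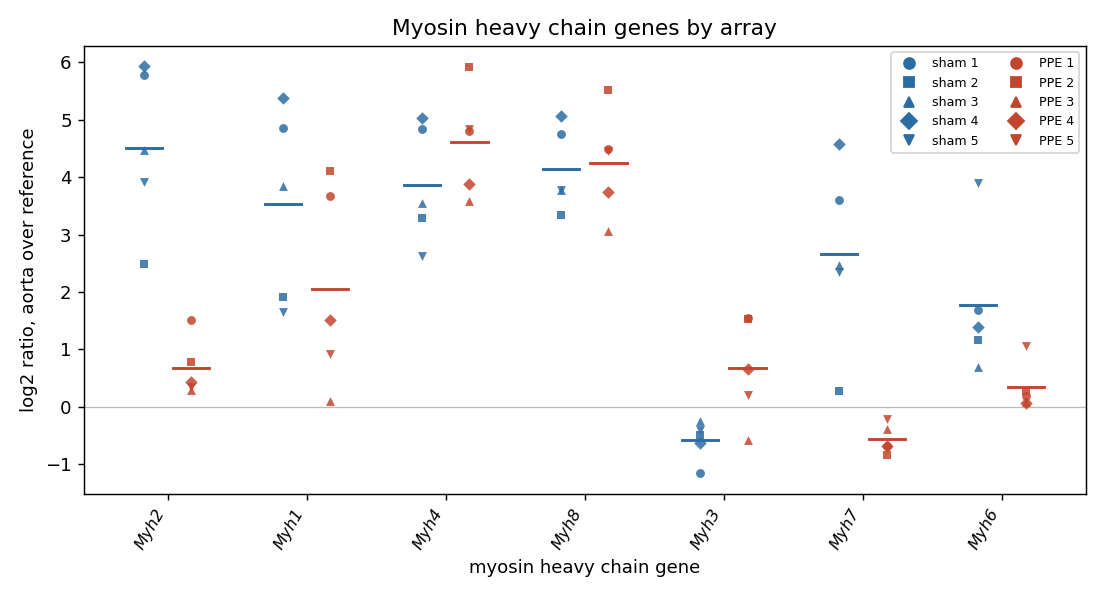
Log2 ratio of aorta over reference (vertical axis) of the 7 striated myosin heavy chain genes on the 5 sham (blue) and 5 PPE (red) arrays, with bars at group means and a symbol for each array number. Myh2 runs from 2.49 to 5.93 in sham and from 0.29 to 1.51 in PPE. Myh7 runs from 0.28 to 4.58 in sham and lies below 0 in PPE. Myh4 and Myh8 lie at like levels in both groups, and Myh3 is above 0 on 4 PPE arrays only.

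Developmental heavy chains are made before birth and again in fibres that regenerate. Myh3, the embryonic chain, read -1.16, -0.48, -0.25, -0.62 and -0.40 in sham and 1.55, 1.53, -0.57, 0.67 and 0.20 in PPE. No sham array and 4 PPE arrays were above background, and PPE 3 lay among the sham arrays. The mean red signal of Myh3 was 2.38-fold higher in PPE, with sham values under the lowest signal above background raised to it. That PPE mean includes the array that was not above background. On the log2 ratios, an exact two-sided permutation test over the 10 arrays gave p = 0.0317. The difference was 2.70 within slide 1 and 0.42 within slide 2. PPE 1 and PPE 2, the highest arrays, were both on slide 1.

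Myh8, the perinatal chain, read 4.74, 3.34, 3.77, 5.06 and 3.78 in sham and 4.49, 5.52, 3.06, 3.74 and 4.45 in PPE, a difference of 0.11 (SE 0.45, adjusted p 0.875). Its probe is uncertain: sham 4 and PPE 2 were highest and PPE 3 was the lowest PPE array, as in Myh4, and the other 3 probes of Myh8 were above background on 7, 3 and 0 arrays, with group differences of 0.18, -0.02 and -0.01. The coding sequences of these heavy chains resemble each other. The probes below are shown because they read matching stretches of Myh3 (chr11:66915107-66915166, mm9, plus strand) and Myh8 (chr11:67121925-67121984, mm9, plus strand). Capitals mark the bases that are identical where the probes line up without gaps, 29 of 48 overlapping bases (60.4%).
Myh3: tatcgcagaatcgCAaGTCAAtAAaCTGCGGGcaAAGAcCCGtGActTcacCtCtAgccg
Myh8: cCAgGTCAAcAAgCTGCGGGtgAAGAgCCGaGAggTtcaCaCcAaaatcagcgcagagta
This second probe of Myh3 read -1.13, -0.52, -0.28, -0.47 and -0.38 in sham and 1.63, 1.46, -0.66, 0.54 and 0.24 in PPE, with PPE 1 and PPE 2 highest and PPE 3 lowest in PPE, as on the first.

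The other fast genes differed more between arrays of a group than between the groups. Tnni2, the fast troponin I, read 3.43, 0.91, 3.35, 5.32 and 2.92 in sham and 1.89, 4.39, 1.19, 3.15 and 2.77 in PPE. Tnnc2, the fast troponin C, read 3.46, 1.94, 2.91, 4.23 and 3.21 in sham and 2.78, 4.18, 1.27, 2.90 and 3.36 in PPE. Myl1, the fast essential light chain, read 3.95, 1.96, 3.61, 5.54 and 2.74 in sham and 2.86, 5.43, 0.94, 3.43 and 3.34 in PPE. In all 3 genes sham 4 and PPE 2 were the highest arrays of their groups, PPE 3 was the lowest PPE array, and the groups overlapped. Their differences were -0.51, -0.25 and -0.36, with 95% confidence intervals from -2.16 to 1.14, from -1.38 to 0.88 and from -2.10 to 1.38.

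Of the remaining fast genes, the fast troponin T Tnnt3 differed by -0.33, and myosin-binding protein C Mybpc2 by 0.59. Alpha-actinin Actn3 differed by 0.90, the calsarcin Myoz1 by 0.06 and the calcium buffer Pvalb by 0.60. The calcium pump Atp2a1 differed by -0.49 and the calcium store protein Casq1 by -1.23, the largest of these 7 (adjusted p 0.0767). None passed the threshold. Mylpf, the fast regulatory light chain, ran from -0.12 to 0.86 in sham and from -0.01 to 0.51 in PPE (exact two-sided permutation test, p = 0.960), and it was above background on 2 arrays of each group.

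Pairs of isoforms that serve the same part were also set against each other inside each array, and the pairs did not all move alike. The slow minus the fast class mean was -1.32, -1.05, -1.07, -1.42 and -0.48 on sham 1 to sham 5 and -1.87, -3.62, -1.09, -2.24 and -1.82 on PPE 1 to PPE 5. The groups overlapped through PPE 3, the PPE array lowest in fast genes. The Tnnt1 minus Tnnt3 gap was -3.81, -2.13, -3.33, -3.00 and -2.28 in sham and -3.45, -5.79, -3.05, -4.51 and -2.73 in PPE, and these overlapped too. The Myl2 minus Myl1 gap was -0.58, -1.39, -1.18, -1.48 and 0.03 in sham and -1.79, -4.86, -0.56, -2.91 and -3.01 in PPE, lower on 4 PPE arrays than on any sham array and within the sham range on PPE 3. The Tnni1 minus Tnni2 gap was -3.44, -1.63, -3.08, -4.02 and -3.23 in sham and -1.63, -4.39, -1.71, -3.25 and -3.01 in PPE, with no shift of the PPE arrays to lower values but for PPE 2. The Tnnc1 minus Tnnc2 gap was -3.54, -2.48, -2.84, -3.23 and -3.52 in sham and -3.81, -5.35, -1.99, -3.37 and -3.93 in PPE, lowest on PPE 2 and highest on PPE 3. The Casq2 minus Casq1 gap went the other way, with -2.26, -2.14, -1.29, -1.85 and -1.23 in sham and -0.63, -1.96, 0.23, -0.57 and -0.28 in PPE, higher on 4 PPE arrays than on any sham array. PPE 2, the PPE array highest in fast genes, had the lowest value of all 10 arrays in 4 of these 5 pairs, Casq2 and Casq1 being the exception. Each gap subtracts a fast gene, so a high fast value by itself lowers it.

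The cardiac isoforms were split. Tnnt2, the cardiac troponin T that skeletal muscle also makes before birth, read -0.68, -0.37, -0.54, -0.32 and 0.03 in sham and -1.75, -1.30, -1.77, -1.31 and -1.17 in PPE. It was below the reference on 9 of the 10 arrays, the groups did not overlap, and the change was -1.09 (SE 0.17, adjusted p 3.66e-04). Within slide 1 the difference was -0.85, and within slide 2 it was -1.09. Tnni3, the cardiac troponin I, read -0.28, 0.01, 0.02, 0.08 and 0.28 in sham and 1.46, 1.36, 0.43, 1.07 and 0.62 in PPE. All PPE arrays lay above all sham arrays, and the change was 0.97 (SE 0.20, adjusted p 0.00293), a 1.96-fold higher level. The Tnni3 probe was dim in sham, with red signal (log2) from 7.08 to 7.39, above background on 4 of the 5 arrays. Without sham 4 and PPE 2 together the change was 0.89 (adjusted p 0.0178), and it was 1.69 higher within slide 1 and 0.73 within slide 2.

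Actc1, the cardiac alpha-actin, read 2.05, 1.50, 1.41, 1.53 and 1.73 in sham and 1.43, 2.35, 0.72, 1.25 and 1.48 in PPE, and Myl4, the atrial light chain, read 0.47, 0.34, 0.07, 0.51 and 0.19 in sham and 0.23, 0.63, -0.57, -0.08 and 0.29 in PPE. The groups overlapped in both, with differences of -0.20 (SE 0.25, adjusted p 0.598) and -0.21 (SE 0.20, adjusted p 0.457). Myh6, the alpha heavy chain of the heart, ran from 0.69 to 3.89 in sham and from 0.07 to 1.07 in PPE, highest on sham 5 and PPE 5. Its difference of -1.43 (SE 0.50, adjusted p 0.0443) did not pass the threshold, and it passed with slide as a fixed block (-1.09, adjusted p 0.00237). Sham 4, sham 5 and PPE 5, each alone on a slide, add nothing to the block estimate. The highest Myh6 array of each group is thus left out of it. Tnnt2 and Tnni3, parts of the same troponin complex in the heart, moved in opposite directions.

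The probes of the fast and the cardiac troponin T are shown because they read matching stretches of 2 isoforms and gave different patterns. The Tnnt3 probe (chr7:149698500-149700262, mm9, plus strand) and the Tnnt2 probe (chr1:137747976-137748288, mm9, plus strand) cover more genome than their 60 bases, so each crosses a splice junction. Capitals mark identical bases in the ungapped overlap, 29 of 44 (65.9%).
Tnnt3: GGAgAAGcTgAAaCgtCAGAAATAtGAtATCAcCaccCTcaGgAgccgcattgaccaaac
Tnnt2: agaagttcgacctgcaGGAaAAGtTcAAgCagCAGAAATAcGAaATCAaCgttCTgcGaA
On this probe, the second of the gene, Tnnt3 read 3.55, 0.90, 3.38, 5.56 and 2.12 in sham and 1.82, 4.61, 0.76, 3.51 and 2.12 in PPE. Sham 4 and PPE 2 stood out in Tnnt3, and on the Tnnt2 probe sham 4 and PPE 2 lay inside their groups.

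**Figure D3:**
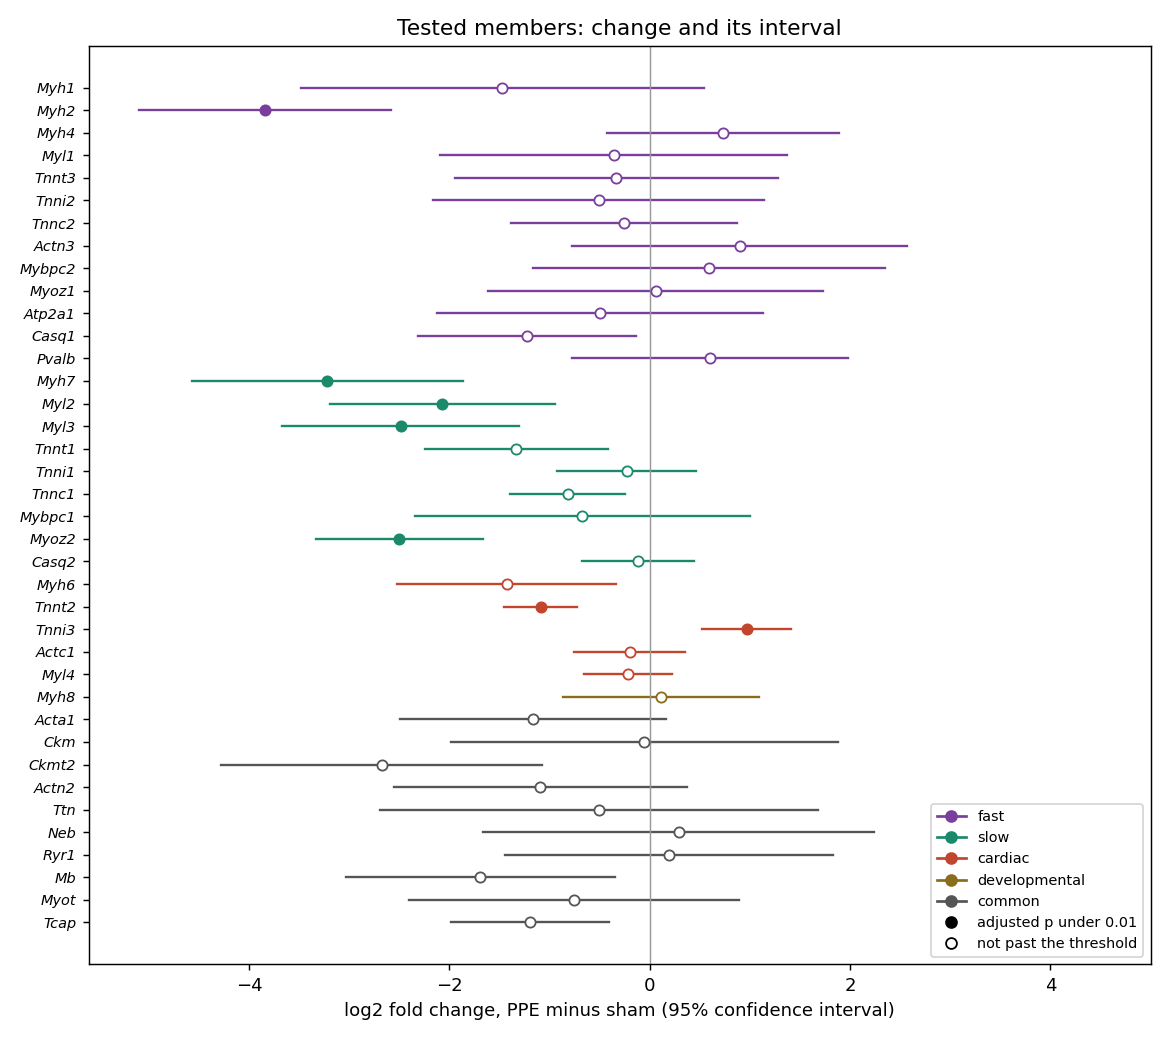
Log2 fold change of PPE over sham (horizontal axis) with its 95% confidence interval for the 38 genes tested, coloured by class, with filled circles past the threshold. Intervals of fast and common genes are wide and most span 0, all slow genes lie below 0, and Tnni3 is the only filled circle above 0.

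Genes common to fast and slow fibres did not pass the threshold, and they spread most between arrays. Acta1, the skeletal alpha-actin, read 3.87, 3.13, 3.15, 5.04 and 3.17 in sham and 1.81, 4.43, 0.78, 3.07 and 2.44 in PPE, with a difference of -1.16 (SE 0.61, adjusted p 0.167). Actin genes are close copies of each other in their coding parts, and whether this probe also reads other actins was not tested. Ckm, the muscle creatine kinase, read 3.39, 0.66, 2.09, 5.08 and 1.10 in sham and 2.06, 4.53, 0.62, 3.12 and 1.72 in PPE, with a difference of -0.06. Ttn, titin, read 4.07, 0.81, 3.62, 5.84 and 2.005 in sham and 2.62, 5.11, 0.94, 3.99 and 1.17 in PPE, with a difference of -0.50. Ttn had the widest range of all 40 genes over the sham arrays, 5.03, and ranged over 4.18 in PPE, where Myl1 was widest with 4.49.

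Myoglobin and telethonin are oxygen storage and Z-disc proteins of striated fibres. Mb, myoglobin, read 3.92, 1.79, 3.002, 4.02 and 3.37 in sham and 2.52, 3.04, -0.11, 1.74 and 0.46 in PPE, a difference of -1.69 (SE 0.61, adjusted p 0.0508). Tcap, telethonin, read 4.43, 4.05, 3.47, 4.70 and 4.49 in sham and 3.40, 4.21, 2.12, 2.83 and 2.61 in PPE, a difference of -1.19 (SE 0.36, adjusted p 0.0231). In both, PPE arrays lay mostly lower, and the groups overlapped.

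For Tcap and Mb the reference channel moved with the aorta channel. The green signal of Tcap (log2, after normalization) was 10.702, 10.86, 11.66, 11.48 and 10.91 on the sham arrays and 6.99, 8.11, 7.19, 8.93 and 7.28 on the PPE arrays, although the labels name the same reference RNA for each array. The PPE mean was lower than the sham mean by over 1 in the reference channel of 4 of the 38 genes (Tcap -3.42, Mb -2.14, Myh2 -1.19 and Myl2 -1.04), while 0.613% of all names tested differed by over 1 in either direction. The cause was not tested. A ratio over a reference that falls too is smaller than the fall in the aorta: in the red channel alone, Tcap was -4.62 (adjusted p 2.38e-05) and Mb was -3.83 (0.00830), and both passed the threshold there. In 30 of the 38 genes the reference means differed by under 0.5. The reference mean was lower in PPE in 35 of the 38, with a median difference of -0.137, against -0.041 over all names. Single arrays could differ more: the green signal of Myh4 ran from 6.82 to 10.74 in sham and from 7.14 to 10.94 in PPE. For Myh8 it ran from 7.54 to 11.42 in sham and from 7.88 to 10.89 in PPE. Atp2a1 varied less, from 7.22 to 7.71 in sham and from 7.52 to 7.72 in PPE. How far this moved the order of arrays and the spread in the log2 ratios was not tested.

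Ckmt2, the mitochondrial creatine kinase of striated muscle, had the largest difference of the common genes (-2.68, SE 0.73, adjusted p 0.0138), with values from 1.78 to 5.75 in sham and from 0.19 to 3.01 in PPE. It passed without sham 2 (adjusted p 0.00354) or without PPE 2 (0.00575). The nebulin gene Neb (0.29), the calcium release channel Ryr1 (0.19), alpha-actinin Actn2 (-1.09) and the Z-disc gene Myot (-0.75) did not pass. The reference was not above background for the Myot probe on any array.

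The spread between arrays of the same group was wider for most of these genes than for most names on the array. The median SD of the 38 genes was 1.33 over the 5 sham arrays and 1.03 over the 5 PPE arrays, against 0.218 and 0.250 for all names tested. A pooled within-group SD over 1 was found in 22 of the 38 (57.9%), against 0.857% of all names. Of the 38, 31 lay above the 95th percentile of all names (0.644). These arrays are those kept after the study's own exclusion of poor and outlying arrays. The effect of that exclusion on the spread was not tested.

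The same arrays stood high or low in most genes. Of the 23 fast and common genes tested, 22 were highest on sham 4 among the sham arrays and 22 were highest on PPE 2 among the PPE arrays. The mean of the 13 fast genes was 3.22, 1.23, 2.47, 4.39 and 1.69 on sham 1 to sham 5 and 2.07, 3.85, 0.80, 2.38 and 1.75 on PPE 1 to PPE 5. The mean of the 10 common genes was 3.59, 1.39, 2.83, 4.67 and 1.95 on the sham arrays and 2.15, 3.68, 0.63, 2.60 and 1.03 on the PPE arrays. Within each group the arrays came in the same order as for the fast genes. Sham 4, PPE 2 and sham 1 led in both classes, and PPE 3 was the lowest array in both.

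Slow genes spread like the fast genes over the sham arrays, and much less over the PPE arrays. Their mean was 1.90, 0.19, 1.40, 2.97 and 1.22 on sham 1 to sham 5, highest on sham 4 and lowest on sham 2. On PPE 1 to PPE 5 it was 0.20, 0.23, -0.29, 0.13 and -0.07, again highest on PPE 2 and lowest on PPE 3 but within 1 unit. The SD of the slow mean was 1.01 over sham arrays and 0.22 over PPE arrays, while that of the fast mean was 1.25 and 1.11. All 9 slow genes had the larger SD in sham, against 41.6% of all names tested. Several slow probes were dim in PPE. Their red signal (log2) ran there from 6.58 to 7.21 for Myh7 and from 6.30 to 7.15 for Myoz2. Mybpc1, at 7.47 to 9.96 in PPE, had an SD of 1.27 there. Tnnt1, at 9.87 to 10.90 in PPE, had SDs of 1.04 in sham and 0.31 in PPE. How far dim signal narrowed the spread in PPE was not tested. The cardiac mean was 0.65, 0.53, 0.33, 0.64 and 1.23 in sham and 0.31, 0.66, -0.22, 0.20 and 0.46 in PPE, highest on sham 5 and PPE 2.

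**Figure D4:**
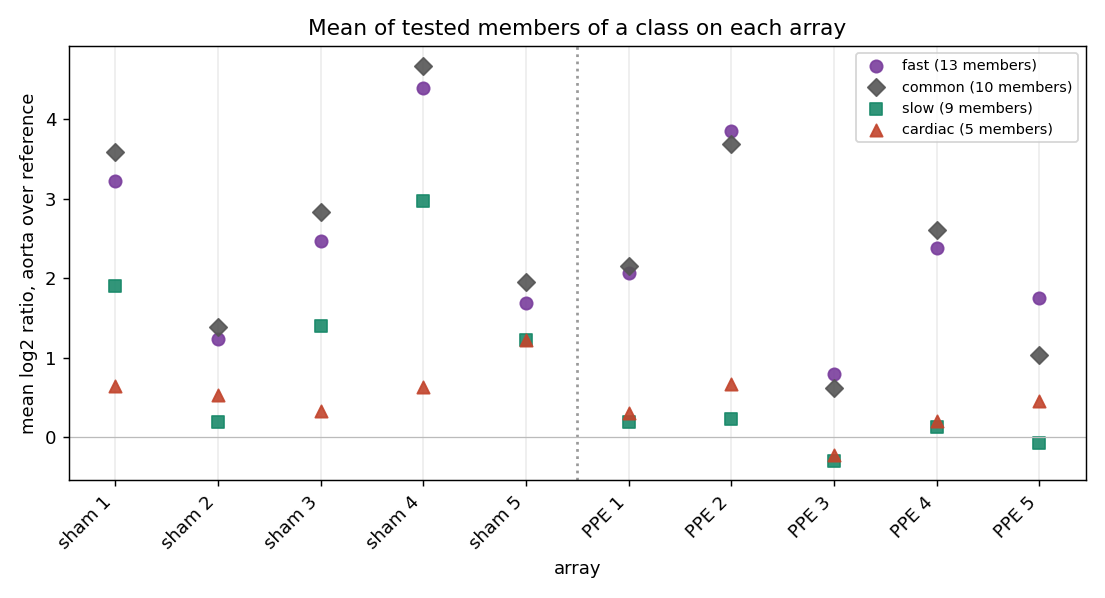
Mean log2 ratio of aorta over reference (vertical axis) of the tested genes of 4 classes on each array (horizontal axis), with a symbol and colour for each class. Fast and common genes are highest on sham 4 and PPE 2 and lowest on PPE 3, while slow genes run from 0.19 to 2.97 in sham and from -0.29 to 0.23 in PPE.

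**Figure D5:**
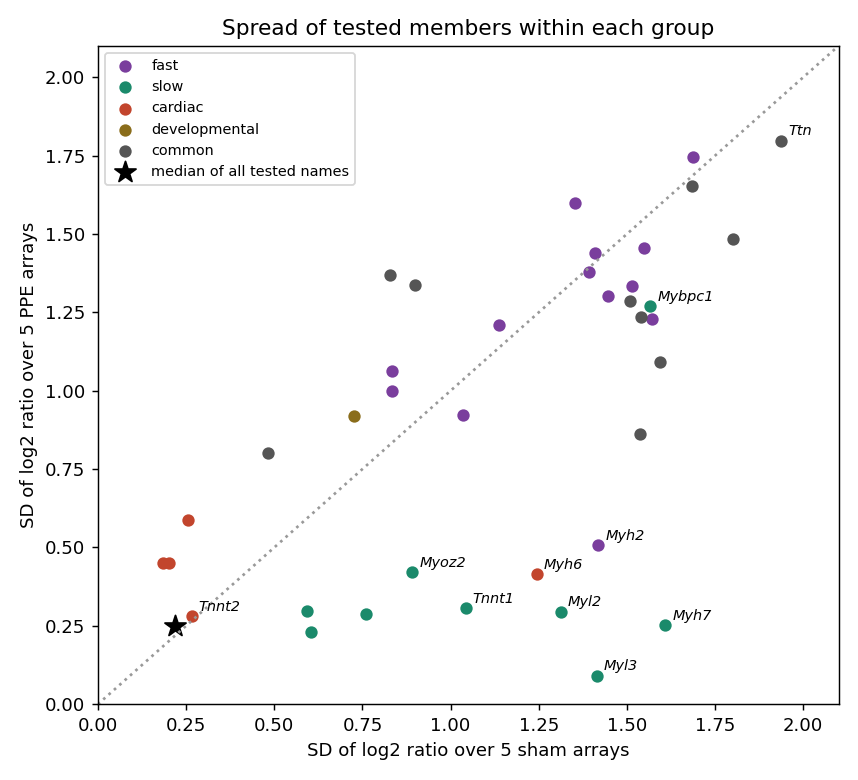
SD of the log2 ratio over the 5 sham arrays (horizontal axis) and over the 5 PPE arrays (vertical axis) of the 38 genes tested, coloured by class, with the median of all names tested as a star and a dotted line where both are equal. Most fast and common genes lie near the line and far from the star. Myh7, Myl2, Myl3, Myh2 and Myh6, whose probes were dim in PPE, lie far below the line.

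Other cell types of the samples also moved, and are given beside these results. Smooth muscle markers ranged over 0.98 between sham arrays and 0.95 between PPE arrays in their list mean, which was highest on sham 1 and on PPE 2. Their list means were 4.18, 3.93, 3.20, 3.95 and 3.48 in sham and 1.69, 2.54, 1.59, 1.61 and 1.595 in PPE, and 12 of 14 genes fell (median -1.80). The 3 called with the largest changes were Myl9 (-3.03), Synpo2 (-2.98) and Tagln (-2.95), all contractile or cytoskeletal genes of smooth muscle.

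Brown fat markers had list means of 4.71, 3.96, 3.79, 4.33 and 3.37 in sham and 0.81, 1.89, 1.05, 1.69 and 0.87 in PPE, and 12 of 12 fell (median -2.41). Slc27a2 (-3.95), a fatty acid transporter, and Otop1 (-3.52) were among the 3 largest, with Cox7a1 (-4.69), a subunit of cytochrome c oxidase that is also a muscle gene. Fat cell markers had list means of 5.16, 4.24, 4.14, 4.85 and 4.32 in sham and 3.997, 4.52, 3.102, 3.22 and 3.39 in PPE, and 4 of 11 fell (median -0.76), led by the lipases Lpl (-1.78), Lipe (-1.27) and Pnpla2 (-1.23). Lipe lost its call when any of 7 single arrays was left out (sham 1, sham 2, sham 4, PPE 1, PPE 3, PPE 4 or PPE 5, adjusted p up to 0.0224). Lpl lost its call when the probes of each gene were averaged (-1.24, limma adjusted p 0.0124). Macrophage markers had list means of 0.85, 0.79, 0.60, 1.04 and 1.09 in sham and 3.38, 2.78, 2.46, 2.94 and 2.56 in PPE, and 8 of 10 rose (median 1.99), led by the Fc receptor Fcgr1 (3.89), the F4/80 gene Emr1 (3.42) and Cd14 (3.30). The part of these cells, and of muscle taken with the aorta, in the results on sarcomere genes was not tested.

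Other genes of striated muscle were read from lists of the same pathways. Of 25 other sarcomere and Z-disc genes tested, 5 fell (20%, against 9.96% of all names) and none rose (against 13.9%), with a median of -0.45, led by Myom1 (-2.45, SE 0.33, adjusted p 1.51e-04), the M-band protein myomesin. Xirp1 (-1.85) and Ldb3 (-1.82), which bind actin and alpha-actinin, followed. Ldb3 lost its call when the probes of each gene were averaged (-1.07, limma adjusted p 0.0200). The means of the whole list were 1.38, 0.68, 1.02, 2.14 and 0.80 in sham and 0.57, 1.12, 0.21, 0.92 and 0.30 in PPE, again highest on sham 4 and PPE 2. Myom1, Xirp1 and Ldb3 themselves were highest on sham 1 (5.16, 2.96 and 4.40, against 4.94, 2.76 and 3.33 on sham 4) and on PPE 2. Of 17 other genes of excitation and calcium release, 3 fell (17.6%, median -0.18): Atp2a2 (-1.93, SE 0.23, adjusted p 7.31e-05), the calcium pump of slow, cardiac and smooth muscle, Jph2 (-1.66), which ties the plasma membrane to the calcium store, and Asph (-1.26). Their list means were 1.27, 0.53, 0.86, 1.80 and 0.60 in sham and 0.41, 1.19, -0.04, 0.73 and -0.0038 in PPE.

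Of 14 genes of muscle energy supply, 6 fell (42.9%, median -0.95), led by the fatty acid binding protein Fabp3 (-4.91, SE 0.22, adjusted p 2.17e-07), Cox7a1 (-4.69, SE 0.30, adjusted p 1.12e-06) and Cox8b (-2.43, SE 0.38, adjusted p 4.08e-04). Cox7a1 and Cox8b also stand among the brown fat markers, and Cox8b lost its call in the deposited log ratios (adjusted p 0.0102). List means were 2.09, 1.38, 1.59, 2.71 and 1.48 in sham and 0.16, 1.31, -0.04, 0.79 and 0.06 in PPE. Of 9 myogenic regulators and satellite cell genes tested, 1 rose, Mef2a (1.90, SE 0.26, adjusted p 1.64e-04), a transcription factor that many cell types use, and none fell. That is 11.1% higher, near the 13.9% of all names. The list mean lay between 0.01 and 0.29 in sham and between 0.09 and 0.40 in PPE. Within the list, Myf6, a myogenic regulator singled out after its values were seen, read 0.44, -0.22, 0.35, 1.57 and 0.12 in sham and 0.51, 1.64, 0.01, 1.98 and -0.17 in PPE, highest on sham 4 and on PPE 4.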

How the data were processed

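The authors hybridised RNA of single aortas (red, Cy5) with a universal reference RNA (green, Cy3) to 2-colour Agilent SurePrint G3 mouse 8x60K arrays, with probes placed on mm9 and no dye swap. The deposited files give the red and green spot intensity that Agilent Feature Extraction 10.7.3.1 wrote for 62976 spots per array, a log10 ratio of its processed signals, and a series table. The series table holds the authors' log2 ratio, red over green, of the processed signals. The authors' methods name unpaired SAM at a false discovery rate of 1% for the expression arrays. They also state that a few arrays with poor hybridization were left out, and that clustering and principal components served to remove outliers. SAM was not run here, since it relabels the samples across all genes.

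Here the mean signals were corrected with normexp (offset 50) and normalized by loess within each array in limma 3.58.1 (R 4.3.3), with control spots at weight 0. Spots marked as outliers by the scanner software were left out, and the spots of each probe were averaged. Probes entered the test where red signal exceeded background on 5 or more of the 10 arrays by the scanner software's own flag, and the brightest tested probe stood for its gene. This left 30836 of 55681 probes and 22520 names. PPE was compared with sham by limma's lmFit and eBayes on log2 ratios, unpaired, with Benjamini-Hochberg adjustment over all names tested and a threshold of 0.01, as in the study's methods. Genes kept out of the test were compared with an exact two-sided permutation test over the 252 relabellings of the arrays, whose smallest p is 0.00794. Arrays came from separate mice, and 5 arrays a group limit the precision.

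The 40 genes, their classes and the other lists were chosen with earlier results of these data known. Values for each array were given for each gene past the threshold, the 3 brightest genes of each class and those with the 5 widest ranges within a group. From each other list up to 3 genes past the threshold with the largest changes were named. Promoters came from RefSeq's table (GRCm38.p6). Exon and UTR annotation on mm9 was not used here. The test was checked on simulated data. Alternatives in background correction, normalization, filter, probe choice, slide, scan day, replicate number and left-out arrays were run.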

Additional observations from a re-analysis of the deposited data

Results flagged for a closer look

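Of 90 groups of 5 arrays examined, 1 held an array far from the others (1.11%, where chance gives 5%). The study's methods state that outlying arrays had been eliminated before, so this share does not describe an unselected set. Myh6, the alpha heavy chain of the heart, read 1.07 on PPE 5 and at most 0.27 on the other PPE arrays. The gap was 0.80 of the range of the group, against a critical value of 0.71. Sham 5 was likewise the highest sham array for Myh6, at 3.89 against at most 1.69 on the others.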

How the results depend on the processing

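Of the genes that passed, Myh2, Myh7, Myoz2 and Tnnt2 lost the threshold only with median centring. Median centring left 0 sarcomere genes lower, 0 higher and 2 of the other striated muscle genes, which compares with 6, 1 and 15 as reported. Keeping only probes above background on all 10 arrays left 21 of the 38 genes, with 2 lower (Myl3 and Tnnt2) and 0 higher. Without sham 4 and PPE 2, chosen after seeing the data, 0 were higher and 5 lower, and the log2 fold changes were -1.71 for Myl2 (adjusted p 0.0343), -2.09 for Myl3 (0.0167) and 0.89 for Tnni3 (0.0178). Leaving out single arrays gave 4 to 8 lower, 1 to 1 higher and 13 to 17 other muscle genes. Tnnt1 and Ckmt2 passed without sham 2, and Ckmt2 and Tcap without PPE 2. The other alternatives gave 5 to 9 lower and 1 higher, and no called gene reversed. The median SD within groups was 1.35 (sham) and 1.42 (PPE) with median centring, and 1.01 and 1.18 in the deposited log ratios, while the pooled SD of all names had a median of 0.753 and 0.319 there, against 0.248 as reported. The spread of these genes over that of all names was thus smaller with median centring. Replicate numbers did not pair the arrays: correlations of the deviations of same-numbered arrays ran from -0.30 to 0.52, and 1 of 5 sham arrays matched its own number best. With the replicate number as a block, 8 were lower, 1 higher and 17 of the other muscle genes were called. Dim probes limit several genes tested. Reference signal was above background on 0 arrays for Myot, 3 for Ckmt2, 4 for Myh2 and 5 each for Myoz2 and Neb. Of the genes called lower, Myh2, Myh7 and Myoz2 had red signal above background on 3 of the 5 PPE arrays. Tnni3, called higher, had it on 4 of the 5 sham arrays.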

Other observations

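Second probes of the longest genes gave the same arrays as high. A second probe of nebulin (Neb) read 2.59, 0.17, 0.84, 3.86 and 0.54 in sham and 1.08, 3.22, 0.04, 1.61 and 0.44 in PPE, where the first probe read 2.50, 0.44, 2.20, 4.33 and 0.21 and 2.46, 4.03, 0.66, 3.57 and 0.40. Sham 4 and PPE 2 were highest on both, and the group difference was 0.29 on the first and -0.32 on the second. A second probe of titin (Ttn) was above background on 5 arrays and read 1.64, 0.08, 0.45, 1.84 and 0.36 in sham and 0.12, 2.05, -0.04, 0.79 and 0.28 in PPE, again highest on sham 4 and PPE 2.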
